A study of Mus musculus with 18 samples.

Results

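The receptors that bind the constant part of IgG antibodies were examined in microglia, the resident macrophages of the brain. The 6 genes are Fcgr1, Fcgr3, Fcgr4 and Fcgr2b, which encode the Fc gamma receptors, Fcer1g, which encodes the common gamma chain, and Fcgrt, which encodes the heavy chain of the neonatal Fc receptor. They were chosen by name, with earlier results of these data known. Each had 1 probe set annotated to its symbol alone and 0 probe sets shared with another symbol, so all 6 of 6 were measured among 22180 genes.

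Microglia had been sorted as CD45-positive, CD11b-positive and Gr1-negative cells from corpus callosum or cortex of healthy, untreated C57Bl/6 mice, and their RNA was hybridised to expression arrays. The 18 arrays form 6 groups of 3, which are corpus callosum and cortex at postnatal day 3 (P3), corpus callosum and cortex at postnatal day 7 (P7), and corpus callosum and cortex of adults. The labels give neither the age of the adults in weeks, the sex, nor whether animals were pooled, so p-values measure only the spread between these samples. The P3 arrays carry another prefix in their labels than the P7 and adult arrays, so a difference between P7 and P3 cannot be told apart from a difference between these 2 sets of arrays.

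Among the Fc gamma receptors, the products of Fcgr1, Fcgr3 and Fcgr4 are activating. They pair with the common gamma chain, whose cytoplasmic activation motif (ITAM) is phosphorylated by Src family kinases and recruits the kinase Syk, which leads to phagocytosis, an oxidative burst and cytokine release. The product of Fcgr2b is the inhibitory receptor, which carries its own motif (ITIM) and recruits the lipid phosphatase SHIP1. The neonatal Fc receptor is built differently: it is a relative of MHC class I, pairs with beta-2 microglobulin, binds IgG and albumin in acidic endosomes and returns them to the cell surface. Microglia are known to take up antibody-coated material through the activating receptors.

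Levels are RMA values in log2 units, where 1 unit is a 2-fold difference, and array medians ran from 5.58 to 5.74. Differences were tested with limma over all 22180 genes, with Benjamini-Hochberg adjustment, and an adjusted p under 0.05 counted as a call. After a level, ± gives the standard deviation of the 3 arrays of a group, and after a difference the standard error from the model. Markers matched the labelled sort. The CD45 gene Ptprc (9.73 to 10.56) and the CD11b gene Itgam (9.25 to 10.53) were high on all 18 arrays, the microglial receptor gene P2ry12 lay between 11.48 and 12.26, and the Gr1 antigen gene Ly6g lay between 2.83 and 4.56, below every array median. Corpus callosum replicate 3 at P3 stood apart for markers of other leukocytes, with means over the neutrophil and monocyte markers of 6.20 and 6.55, against 4.45 to 5.55 and 5.53 to 5.95 on the other 17 arrays. Not every marker in these means was raised. Ly6g was at 3.83 on it, against 4.06 and 3.63 on replicates 1 and 2. The monocyte marker Ccr2 reached at most 5.54 in that group, against 6.41 in adult cortex. Regional differences at P3 and group means of the members are given with and without corpus callosum replicate 3 at P3. Percentile ranks, counts of unadjusted p under 0.05 and correlations between genes include that array. Both adult replicate 1 arrays had the lowest mean correlations with all other arrays, 0.953 in corpus callosum and 0.956 in cortex, against 0.961 to 0.974 for the others.

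Within each array the common gamma chain gene ranked between the 99.7 and 99.9 percentile of all genes, Fcgr3 between 98.6 and 99.4, and Fcgr1 between 97.9 and 99.4. Fcgrt ranked between 88.7 and 98.3 and Fcgr2b between 79.1 and 94.7. Fcgr4 had the widest span, 50.3 to 97.2, and on its lowest array it lay near the middle of all genes. These ranks depend on the probes of each gene and set no receptor's abundance against another's. The coding sequences of Fcgr2b and Fcgr3 are near-identical over the part that encodes the extracellular domains, and the files do not show which probes lie there, so the 2 values may be partly mixed.

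**Figure D1:**
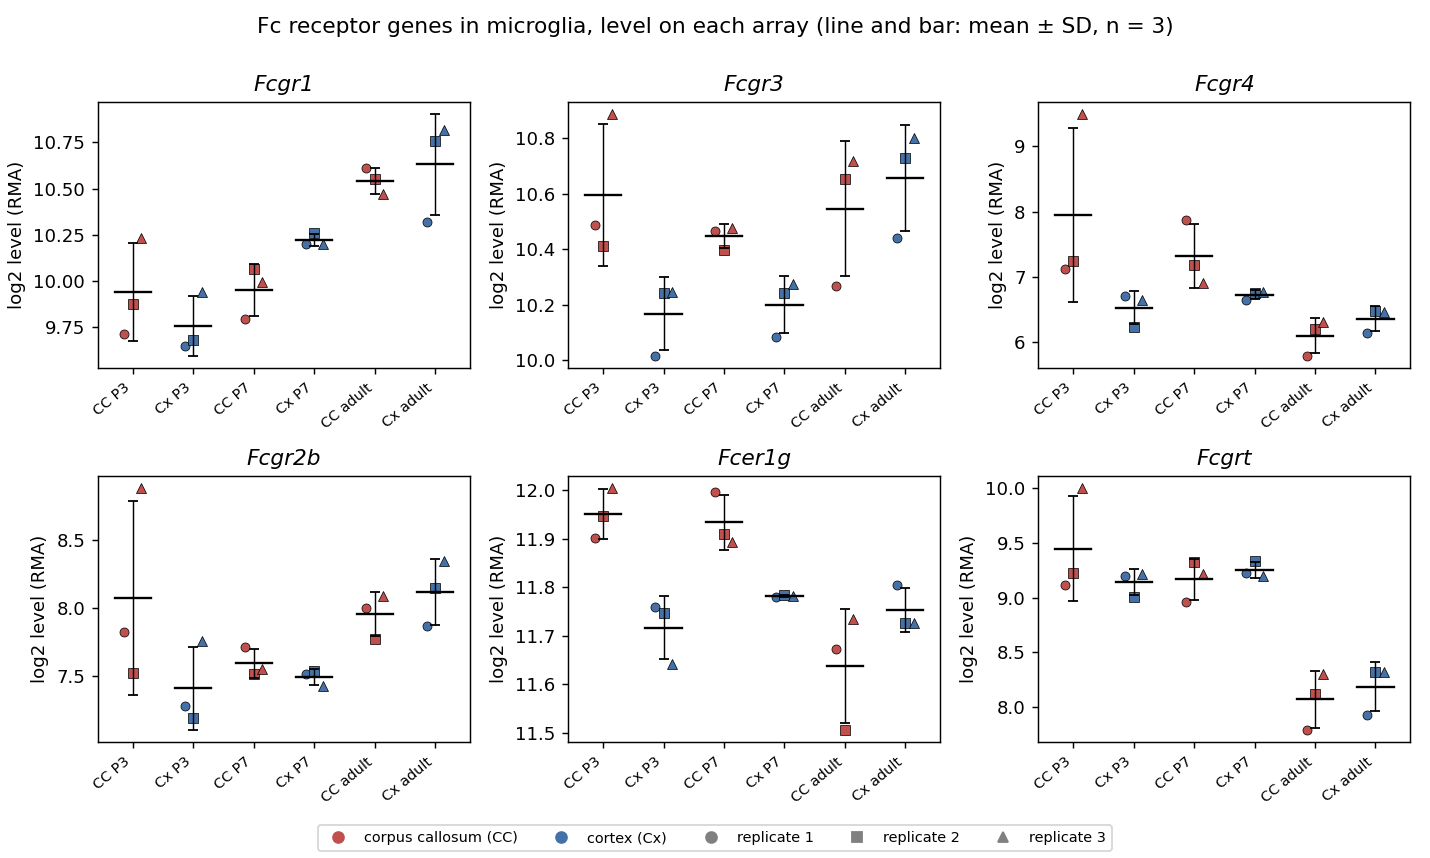
Log2 level of each of the 6 genes on each array, by group, with corpus callosum (CC) in red and cortex (Cx) in blue. Lines and bars are means ± SD of 3 arrays, each panel has its own scale, and Fcgrt is lower on all 6 adult arrays, none of which exceeds 8.32, than on all 12 postnatal arrays, which start at 8.96.

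The comparison of adult with P7 microglia asks how these genes differ between the period of myelination and maturity, and it lies within 1 set of arrays. Fcgrt, the neonatal Fc receptor gene, fell about equally in both regions. In corpus callosum it was at 7.79, 8.12 and 8.30 on the adult arrays, against 8.96, 9.32 and 9.22 on the P7 arrays. In cortex it was at 7.93, 8.32 and 8.32 in adults, against 9.22, 9.34 and 9.19 at P7. Every adult array was below every P7 array of its region. Fcgrt was 2.14-fold lower in adult corpus callosum (-1.09 ± 0.19, adjusted p 0.000494) and 2.09-fold lower in adult cortex (-1.06 ± 0.19, adjusted p 0.00102). Both calls held under all 16 alternatives tried in each region (adjusted p 5.84e-05 to 0.0043 in corpus callosum and 4.64e-05 to 0.00771 in cortex). The regional difference in adults minus that at P7 was -0.03 ± 0.28, with a 95% interval from -0.61 to 0.55. B2m, the gene of its partner beta-2 microglobulin, had differences of 0.06 ± 0.09 in corpus callosum (adjusted p 0.716) and 0.08 ± 0.09 in cortex (adjusted p 0.731).

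Fcgr1, the gene of the high-affinity receptor CD64, was higher in adults. In corpus callosum its levels were 10.61, 10.55 and 10.47 in adults, against 9.79, 10.06 and 9.99 at P7. In cortex they were 10.32, 10.76 and 10.81 in adults, against 10.20, 10.26 and 10.20 at P7. The groups did not overlap in either region. Fcgr1 rose 1.51-fold in corpus callosum (0.59 ± 0.15, adjusted p 0.00898) and was called under 15 of 16 alternatives, with an adjusted p of 0.0516 without corpus callosum replicate 1 at P7. In cortex its difference of 0.41 ± 0.15 did not pass (adjusted p 0.102). It passed there under 5 of 16 alternatives. Among them were leaving out cortex replicate 1 of the adults (0.57, adjusted p 0.0198), array weights (0.00258) and another quantile normalization (0.0236). The regional difference in adults minus that at P7 was 0.18 ± 0.21 (adjusted p 0.93), so a difference between the regions in the rise of Fcgr1 was not shown. The sort marker genes Ptprc (0.60 ± 0.13, adjusted p 0.00377) and Itgam (0.84 ± 0.13, adjusted p 0.000123) also rose in corpus callosum. In cortex Itgam rose (0.61 ± 0.13, adjusted p 0.00389) and Ptprc did not pass (0.17 ± 0.13, adjusted p 0.554). The part of these rises in that of Fcgr1 was not tested.

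Fcgr4, the gene of another activating receptor, was lower in adult corpus callosum, at 5.78, 6.20 and 6.30, against 7.87, 7.18 and 6.91 at P7. In cortex it was at 6.14, 6.48 and 6.45 in adults, against 6.65, 6.75 and 6.77 at P7. The adult arrays were below the P7 arrays in both regions, with the widest spread in corpus callosum at P7. Fcgr4 fell 2.34-fold in corpus callosum (-1.23 ± 0.42), with an adjusted p of 0.0498, just under the threshold. It did not pass in cortex (-0.37 ± 0.42, adjusted p 0.719), nor with P7 and adult arrays only (0.348) or only the groups compared (0.128). The standard error came from the spread within all 6 groups. That spread was widest in corpus callosum at P3, a group not compared here (SD 1.34, against 0.07 in cortex at P7 and 0.19 in adult cortex). The corpus callosum call ended without corpus callosum replicate 1 at P7 (-0.95, adjusted p 0.204), replicate 2 at P7 (-1.30, adjusted p 0.0868) or replicates 1, 2 or 3 of the adults (-1.07, -1.28 and -1.33, adjusted p 0.155, 0.09 and 0.0695). With the P3 arrays left out of the fit altogether, an alternative added after seeing the data, its adjusted p was 0.000904. The call did not hold with trend and robust eBayes (adjusted p 0.0946) or without both adult replicate 1 arrays (0.162). It held under 8 of 16 alternatives (range over all alternatives 0.000904 to 0.204).

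Fcer1g, the common gamma chain gene, had the smallest difference among the called members. Its levels in corpus callosum were 11.67, 11.51 and 11.73 in adults, against 11.997, 11.91 and 11.89 at P7. In cortex they were 11.80, 11.73 and 11.73 in adults and 11.78 at P7 on each array. The corpus callosum groups did not overlap, whereas those of cortex did. Fcer1g fell 1.23-fold in corpus callosum (-0.30 ± 0.10, adjusted p 0.0451) and did not pass in cortex (-0.03 ± 0.10, adjusted p 0.925). The cortex difference was 0.16 when the arrays were quantile-normalized again. That normalization also left -0.11 in corpus callosum (adjusted p 0.516), and the call held under 6 of 16 alternatives. Of the arrays left out in turn, corpus callosum replicates 1, 2 and 3 at P7 (adjusted p 0.145, 0.0903 and 0.0787) and replicates 1 and 2 of the adults (0.0732 and 0.181) each ended it. The difference between the regions was -0.27 ± 0.14 (adjusted p 0.726).

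Fcgr3, the gene of the activating receptor CD16, and Fcgr2b, the gene of the inhibitory receptor, did not pass in either region, although both passed in cortex under other settings. In cortex Fcgr3 was at 10.44, 10.73 and 10.80 in adults, against 10.08, 10.24 and 10.27 at P7, with no overlap (0.46 ± 0.15, adjusted p 0.0596). In corpus callosum it was at 10.27, 10.65 and 10.72 in adults, against 10.47, 10.40 and 10.47 at P7, and the groups overlapped (0.10 ± 0.15, adjusted p 0.716). Fcgr2b had no overlap in either region. It was at 7.86, 8.14 and 8.34 in adult cortex, against 7.51, 7.54 and 7.43 at P7 (0.63 ± 0.24, adjusted p 0.136). In corpus callosum it was at 8.0005, 7.77 and 8.09 in adults, against 7.71, 7.51 and 7.55 at P7 (0.36 ± 0.24, adjusted p 0.362). Without cortex replicate 1 of the adults, Fcgr3 passed in cortex (0.56, adjusted p 0.0301). With the replicate number as a block it passed too (adjusted p 0.0215). Fcgr2b passed in cortex with array weights (adjusted p 0.00854), with only the groups compared in the fit (0.0232) and with P7 and adult arrays only (0.00758).

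In all, 1 member rose and 3 fell in corpus callosum, where 17.2% of all genes were called (6.56% higher and 10.7% lower). In cortex 0 rose and 1 fell, where 10.2% of all genes were called (4.05% higher and 6.15% lower). The adult and P7 arrays did not overlap for 5 members in each region, and for 34.6% of all genes in corpus callosum and 27.3% in cortex. The median difference over the members was -0.10 in corpus callosum and 0.19 in cortex, against 0.05 and 0.03 over all genes. The members therefore did not move as 1 group: in both regions Fcgr1, Fcgr3 and Fcgr2b had positive differences and Fcgr4, Fcer1g and Fcgrt negative ones, with Fcer1g in cortex positive after another quantile normalization. Taken within each array against the inhibitory receptor gene, the ratio of Fcgr4 differed most between the ages. The log2 ratio of Fcgr4 over Fcgr2b lay between -2.22 and -1.57 in adult corpus callosum, against -0.64 to 0.15 at P7, and between -1.89 and -1.67 in adult cortex, against -0.86 to -0.66 at P7. The mean log2 ratio in adults minus that at P7 was -1.59 in corpus callosum and -0.99 in cortex, given as a description with no test. The same ratio for Fcgr3 overlapped between adult and P7 arrays in both regions. For Fcgr1 it overlapped in corpus callosum, but lay between 2.46 and 2.61 in adult cortex, against 2.69 to 2.77 at P7 (mean -0.21).

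**Figure D2:**
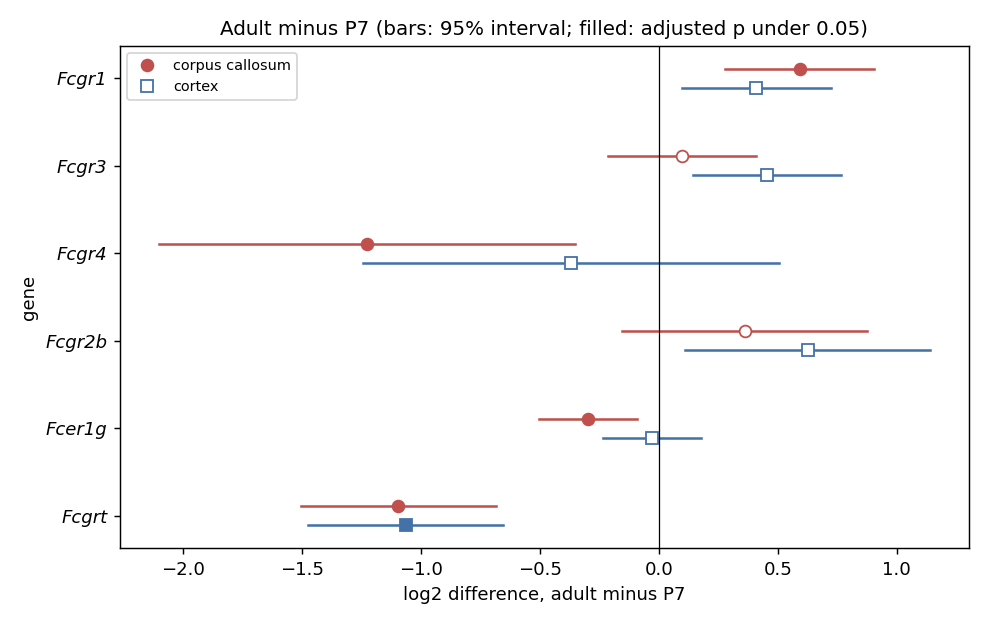
Difference of adult minus P7 microglia in log2 units for each gene, in corpus callosum (circles) and cortex (squares), with 95% intervals from limma and filled symbols where the adjusted p was under 0.05. Fcgrt lies near -1.1 in both regions and is the only one of the 6 with a call in each.

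The start regions of the 4 called members are shown because these genes differed in opposite directions between adult and P7 microglia. The sequences are the 250 bases before each annotated start, 5′ to 3′ on the gene's strand, from RefSeq (GRCm38.p6), and all 6 members had an entry. They lie at chr7:45103823-45104072, minus strand (Fcgrt), chr3:96293970-96294219, minus strand (Fcgr1), chr1:171018676-171018925, plus strand (Fcgr4) and chr1:171234350-171234599, minus strand (Fcer1g). Capitals mark matches on either strand to 3 motifs: GAGGAA, the core bound by the macrophage factor PU.1, TTCNNNGAA, the gamma-activated site of STAT factors, and the core of the interferon-stimulated response element (2 runs of GAAA that lie 2 bases apart).
Fcgrt: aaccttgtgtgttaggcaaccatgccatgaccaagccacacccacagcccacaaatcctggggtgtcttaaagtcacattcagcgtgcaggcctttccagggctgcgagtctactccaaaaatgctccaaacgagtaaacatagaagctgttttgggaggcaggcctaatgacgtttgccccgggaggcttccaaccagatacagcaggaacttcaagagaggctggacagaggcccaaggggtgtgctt
Fcgr1: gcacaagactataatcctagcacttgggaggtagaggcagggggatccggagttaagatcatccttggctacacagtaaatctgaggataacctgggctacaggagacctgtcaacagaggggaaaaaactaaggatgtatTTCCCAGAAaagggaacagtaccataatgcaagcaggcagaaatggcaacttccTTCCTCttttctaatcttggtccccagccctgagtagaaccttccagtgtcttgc
Fcgr4: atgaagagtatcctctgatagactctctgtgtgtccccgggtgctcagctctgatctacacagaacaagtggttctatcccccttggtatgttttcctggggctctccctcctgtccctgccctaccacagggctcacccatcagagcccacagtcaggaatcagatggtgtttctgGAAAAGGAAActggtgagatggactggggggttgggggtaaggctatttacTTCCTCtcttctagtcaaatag
Fcer1g: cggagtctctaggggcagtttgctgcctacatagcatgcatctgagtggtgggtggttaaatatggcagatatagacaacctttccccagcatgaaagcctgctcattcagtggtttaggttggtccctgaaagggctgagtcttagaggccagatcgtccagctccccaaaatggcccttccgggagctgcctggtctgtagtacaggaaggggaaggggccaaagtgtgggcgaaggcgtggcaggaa
Fcgr1 held 1 match to the STAT motif, TTCCCAGAA, at bases -109 to -101 from the start, and 1 to GAGGAA, read as TTCCTC, at -55 to -50. Fcgr4 held 1 match to the interferon-stimulated core at -73 to -64 and 1 to GAGGAA at -22 to -17. Both Fcgr3 windows, which overlap each other, also held 1 match to GAGGAA. The windows of Fcgrt, Fcer1g and Fcgr2b held no match to any of the 3. No match overlapped a match to another motif. Of all 32851 such windows, 23.3% held GAGGAA, 7.02% TTCNNNGAA and 2.98% the interferon-stimulated core. On the chromosome, Fcgr2b, Fcgr4 and Fcgr3 follow each other on mouse chromosome 1 with no other protein-coding gene between them, and Fcer1g lies further along, while Fcgr1 is on chromosome 3 and Fcgrt on chromosome 7. For adult minus P7 the difference of Fcgr4 was negative and those of Fcgr2b and Fcgr3 were positive in both regions. Of these only that of Fcgr4 in corpus callosum was called.

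The comparison of corpus callosum with cortex asks whether white matter microglia differ in these receptors while myelin is formed and afterwards. No member was called at any age. At P3, 0 of 6 passed in limma, where 0.505% of all genes did, and 4 had an unadjusted p under 0.05. Fcgr4 had the largest difference. It was at 7.12, 7.24 and 9.50 in corpus callosum, against 6.70, 6.23 and 6.64 in cortex at P3, without overlap (1.43 ± 0.42, adjusted p 0.133). Replicate 3 of corpus callosum, the array with the high means over neutrophil and monocyte markers, gave the highest Fcgr4 value of all 18 arrays. Without it the difference was 0.66 (adjusted p 0.218).

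That array was also the highest of all 18 for Fcgr2b, Fcgr3, Fcer1g and Fcgrt. Fcgr2b was at 7.82, 7.52 and 8.88 in corpus callosum, against 7.28, 7.19 and 7.76 in cortex at P3, and the groups overlapped (0.67 ± 0.24, adjusted p 0.243, and 0.26 without that array). Fcgrt was at 9.12, 9.22 and 9.997, against 9.20, 9.004 and 9.22, and overlapped too (0.31 ± 0.19, adjusted p 0.554, and 0.03 without it). Fcgr3 was at 10.49, 10.41 and 10.89, against 10.02, 10.24 and 10.24, with no overlap (0.43 ± 0.15, adjusted p 0.215, and 0.28 without it). Fcer1g was at 11.90, 11.95 and 12.004, against 11.76, 11.75 and 11.64, and did not overlap either (0.23 ± 0.10, adjusted p 0.321, and 0.21 without it). Fcgr1 overlapped, with 9.71, 9.88 and 10.23 in corpus callosum, against 9.65, 9.68 and 9.94 in cortex (0.18 ± 0.15, adjusted p 0.662, and 0.04 without that array). All 6 differences were positive at P3, with a median of 0.37 against 0.01 over all genes. Without corpus callosum replicate 3 the median over the members was 0.24. Complete separation with higher levels in corpus callosum held for 3 members and for 9.17% of all genes, and with lower levels for 0 members and 6.67% of all genes. The part of other leukocytes in these values was not tested.

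At P7, 0 of 6 members passed in limma, where 0.451% of all genes did (0.446% with higher levels in corpus callosum), and 0 had an unadjusted p under 0.05. Fcgr4 (0.60 ± 0.42), Fcgr3 (0.25 ± 0.15) and Fcer1g (0.15 ± 0.10) had all 3 corpus callosum arrays above all 3 cortex arrays, as did 8.97% of all genes. Fcgr1 ran the other way, with all 3 corpus callosum arrays below cortex (-0.27 ± 0.15, adjusted p 0.826), as did 7.76% of all genes. Corpus callosum replicate 1 had the highest Fcgr4 level of the P7 arrays, 7.87, and also the highest P7 mean over the neutrophil markers, 5.55 against 4.55 to 4.75 on the others. Without it the Fcgr4 difference was 0.32. Fcgr2b differed by 0.10 ± 0.24 and Fcgrt by -0.08 ± 0.19, both with overlap.

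In adults, 0 of 6 members passed in limma, where 0.00451% of all genes did, and 0 had an unadjusted p under 0.05. The 6 differences lay between -0.26 (Fcgr4) and -0.09 (Fcgr1), all with overlapping arrays, whereas 6.73% of all genes were separated with higher and 6.07% with lower levels in corpus callosum. The 95% intervals of the members reached at most from -1.14 to 0.61 for Fcgr4 and from -0.68 to 0.35 for Fcgr2b. Averaged over the 3 ages, 0 of 6 were called, where 0.618% of all genes were (0.509% higher), and 2 had an unadjusted p under 0.05, Fcgr4 (0.59 ± 0.24, adjusted p 0.39) and Fcgr3 (0.19 ± 0.09, adjusted p 0.466). An exact two-sided permutation test within ages, over 8000 rearrangements, gave unadjusted p-values of 0.0478 for Fcgr4, 0.0735 for Fcgr3, 0.0862 for Fcer1g, 0.303 for Fcgr2b, 0.55 for Fcgr1 and 0.823 for Fcgrt. Without corpus callosum replicate 3 at P3, the averaged difference was 0.33 for Fcgr4 (limma adjusted p 0.289, exact p 0.0775 over 4000 rearrangements) and 0.14 for Fcgr3 (limma adjusted p 0.547, exact p 0.121). For the change of the regional difference between ages, 0 of 6 members passed. Of all genes 0% did so for P7 against P3 and 0.203% for adult against P7. An unadjusted p under 0.05 was reached by 1 member (Fcgr1, P7 against P3, -0.45 ± 0.21, adjusted p 0.868) in the first and 0 in the second. With 1 array left out, that Fcgr1 value ranged from -0.57 to -0.31.

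**Figure D3:**
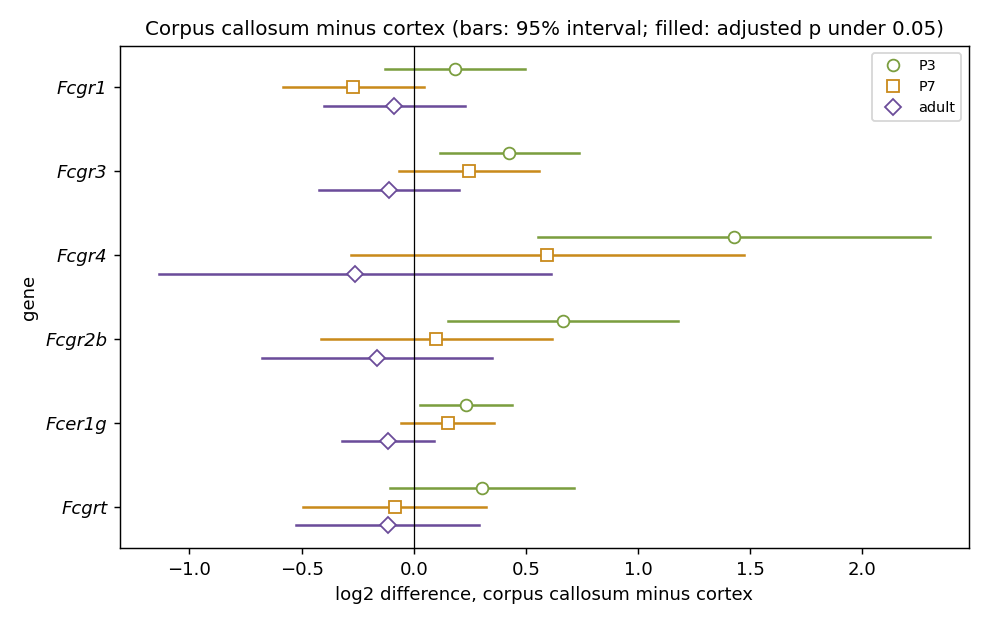
Difference of corpus callosum minus cortex in log2 units for each gene at P3 (circles), P7 (squares) and in adults (diamonds), with 95% intervals from limma. All symbols are open because no adjusted p was under 0.05, and the P3 difference of Fcgr4, 1.43, is the largest.

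Between P7 and P3, 0 of 6 members passed in limma in corpus callosum, where 0.739% of all genes did, and 0 of 6 in cortex, where 0.884% did. An unadjusted p under 0.05 was reached by 0 members in corpus callosum and by 1 in cortex. That was Fcgr1 in cortex, at 10.20, 10.26 and 10.20 at P7, against 9.65, 9.68 and 9.94 at P3, with no overlap (0.46 ± 0.15, adjusted p 0.168). Fcer1g was also separated there, at 11.78 on each P7 array, against 11.76, 11.75 and 11.64 at P3, as were 21.3% of all genes (10.9% with higher levels at P7). In corpus callosum the largest difference was that of Fcgr4 (-0.63 ± 0.42, adjusted p 0.531), which was 0.14 without corpus callosum replicate 3 at P3. No member was separated in corpus callosum, whereas 9.43% of all genes were higher and 9.36% lower at P7 without overlap. The difference of Fcgr2b there was -0.48 ± 0.24 (adjusted p 0.39), and -0.08 without that array.

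In the order of the group means, Fcgr1 was highest in adult cortex (10.63 ± 0.27) and adult corpus callosum (10.54 ± 0.07), which overlapped, then cortex at P7 (10.22 ± 0.03), which overlapped neither neighbour. Below it corpus callosum at P7 (9.95 ± 0.14), corpus callosum at P3 (9.94 ± 0.27) and cortex at P3 (9.76 ± 0.16) overlapped in turn. For Fcgr3 and Fcgr2b adult cortex was again highest and cortex at P3 lowest. The 1 gap without overlap lay between corpus callosum and cortex at P7 for Fcgr3 and between adult corpus callosum and corpus callosum at P7 for Fcgr2b. Fcgr4 had corpus callosum at P3 (7.95 ± 1.34) and at P7 (7.32 ± 0.49) on top, both cortex groups of pups next and both adult groups last. Without replicate 3 of corpus callosum at P3, that group averaged 7.18 and ranked below corpus callosum at P7. The gap without overlap lay between corpus callosum and cortex at P7. Fcer1g shared the top 2 groups and the lowest group of Fcgr4, but its means spanned only 0.31 log2 units, against 1.86 for Fcgr4, and 0.30 against 1.23 without that array. For Fcgrt the 4 postnatal groups (9.14 to 9.44) overlapped in turn and the 2 adult groups (8.19 and 8.07) followed after a gap of 0.95. Without the same array, corpus callosum at P3 averaged 9.17 for Fcgrt and was second after cortex at P7, and for Fcer1g it averaged 11.92 and was second after corpus callosum at P7. For Fcgr3 and Fcgr2b it averaged 10.45 and 7.67 and ranked 3 of 6 in place of 2, and for Fcgr1 it averaged 9.79 and stayed at rank 5.

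Each member was compared by Pearson's r over the 18 arrays, which share age, array set and normalization, with 9094 other genes. These had a mean of at least 6 and no name of a clone, locus, small RNA or mitochondrial transcript. The 3 genes most like Fcgrt among them were Ap2a2 (r 0.98, Spearman's rho 0.93), Man2a1 (0.96, 0.78) and Hnrnpll (0.96, 0.79). Ap2a2 encodes a subunit of the AP-2 adaptor of clathrin-coated pits. For Fcgr1 they were Ifngr1, a chain of the interferon gamma receptor (r 0.97, rho 0.97), Dapp1 (0.96, 0.95) and the inhibitory lectin gene Siglece (0.96, 0.95). For Fcgr4 they were Igf1r (r 0.93, rho 0.78), Stxbp2 (0.91, 0.87) and Arrdc4 (0.91, 0.75). For Fcer1g they were the glycolytic gene Gapdh (r 0.95, rho 0.94), Slc35f6 (0.93, 0.97) and Cox7a1 (0.90, 0.90). Ube2h, Mat2b and the oxidase subunit gene Ncf4 (r 0.89, 0.89 and 0.88, rho 0.85, 0.88 and 0.76) were most like Fcgr3. Uckl1, Birc3 and Kdm7a (r 0.91, 0.91 and 0.88, rho 0.85, 0.83 and 0.73) were most like Fcgr2b. Among the members themselves, Fcgr3 and Fcgr2b, whose values may be partly mixed, had the highest r over the arrays, 0.81. With the group means subtracted, r was 0.65 for this pair and highest for Fcgr4 with Fcgr2b, 0.84.

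Of the wider pathway, genes were called between adult and P7 microglia in both directions, and the counts of each list stand beside shares over all genes of 17.2% in corpus callosum and 10.2% in cortex. Among 19 measured genes of activating ITAM signalling, 4 rose and 1 fell in corpus callosum and 4 rose and 0 fell in cortex. The median difference was 0.26 in corpus callosum and 0.23 in cortex, against 0.05 and 0.03 over all genes. The PI3-kinase genes Pik3r1 (0.65 ± 0.10, adjusted p 0.000112) and Pik3cb (0.61 ± 0.16, adjusted p 0.0113) and the kinase gene Prkcd (0.56 ± 0.17, adjusted p 0.0239) rose in corpus callosum. The exchange factor gene Vav3 fell there (-1.02 ± 0.21, adjusted p 0.00178). In cortex the adaptor gene Blnk (0.77 ± 0.13, adjusted p 0.000717), Pik3cb (0.76 ± 0.16, adjusted p 0.0033) and Src (0.58 ± 0.12, adjusted p 0.00346) rose. In corpus callosum the call of Pik3cb ended without replicate 1 or 2 at P7 (adjusted p up to 0.0592), and that of Prkcd without any P7 array or without replicate 2 or 3 of the adults (up to 0.0712).

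Of 10 measured genes of inhibitory signalling, 2 rose and 3 fell in corpus callosum, and 1 rose in cortex. Inpp5d, which encodes SHIP1, the phosphatase that acts downstream of the inhibitory receptor, rose in both (0.72 ± 0.13, adjusted p 0.000595 in corpus callosum, and 0.59 ± 0.13, adjusted p 0.00508 in cortex). Its level was 10.75 ± 0.13 in adult corpus callosum, against 10.03 ± 0.09 at P7, and 10.93 ± 0.20 in adult cortex, against 10.34 ± 0.07 at P7. In corpus callosum the ITIM receptor gene Pirb rose (1.12 ± 0.29, adjusted p 0.0119) and another ITIM receptor gene, Lilrb4a, fell (-1.61 ± 0.34, adjusted p 0.00205). Ptpn11 (-0.68 ± 0.22, adjusted p 0.0358) and Inppl1 (-0.50 ± 0.14, adjusted p 0.019), both phosphatase genes, also fell there. Pirb lost its call without replicate 3 at P7 or replicate 1 of the adults (up to 0.0781). Ptpn11 lost it without any P7 array or without replicate 1 or 3 of the adults (up to 0.17), and Inppl1 without replicate 1 or 3 at P7 or 2 or 3 of the adults (up to 0.11). Lilrb4a was the 1 gene of this list called between the regions, higher in corpus callosum averaged over the ages (0.88 ± 0.19, adjusted p 0.0453). That call ended whichever of 14 of the 18 arrays was left out (up to 0.114).

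Among 19 measured genes of the phagocytic cup and actin, 2 rose and 4 fell in corpus callosum and 1 rose and 2 fell in cortex. Over all genes 17.2% and 10.2% were called. The median difference was -0.02 in corpus callosum and 0.06 in cortex, against 0.05 and 0.03 over all genes. Pld1, a phospholipase D gene, rose in both (1.26 ± 0.14, adjusted p 4.58e-06 in corpus callosum, and 0.99 ± 0.14, adjusted p 9.10e-05 in cortex), and Elmo1, part of a Rac activator, rose in corpus callosum (0.70 ± 0.14, adjusted p 0.00116). The actin-severing cofilin gene Cfl1 fell in both (-0.84 ± 0.13, adjusted p 0.000128, and -0.66 ± 0.13, adjusted p 0.00191), and the Arp2/3 subunit gene Arpc5 fell in corpus callosum (-0.83 ± 0.12, adjusted p 0.000104). Gsn, the gelsolin gene, was called higher in corpus callosum than in cortex averaged over the ages (0.32 ± 0.07, adjusted p 0.0414), and lost that call without any of 14 of the 18 arrays (up to 0.108). Of 5 measured genes of the phagocyte NADPH oxidase, 0 rose and 2 fell in each region. Cyba fell in corpus callosum (-0.84 ± 0.15, adjusted p 0.000493), Cybb in cortex (-0.85 ± 0.24, adjusted p 0.0294) and the GTPase gene Rac2, which is in both lists, in corpus callosum (-0.82 ± 0.17, adjusted p 0.00213) and cortex (-0.65 ± 0.17, adjusted p 0.0193). Cybb lost its call without any array of either group (up to 0.105), and Rac2 in cortex without replicate 2 or 3 at P7 or 1 or 3 of the adults (up to 0.113).

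Among 13 other Fc receptors and relatives, 2 rose and 0 fell in corpus callosum and 1 rose in cortex. Fcrl1, an Fc receptor-like gene known from B cells, rose in both (1.11 ± 0.16 in each, adjusted p 8.23e-05 in corpus callosum and 0.000119 in cortex). Of 7 measured B cell markers, 0 rose and 2 fell in adult corpus callosum, and 0 rose and 1 fell in adult cortex. The IgE receptor gene Fcer1a rose in corpus callosum (0.58 ± 0.16, adjusted p 0.0174), at a level of 3.14 ± 0.24 in adults, against 2.56 ± 0.11 at P7, far below the array medians. It lost its call without replicate 2 or 3 at P7 or 3 of the adults (up to 0.0897). Of 8 measured receptors that pair with the common gamma chain, 2 rose in corpus callosum, Fcer1a and Lilra5 (0.39 ± 0.13, adjusted p 0.0439), and 0 were called in cortex. Lilra5 lost its call without any single array of the 2 groups but replicate 3 at P7 (up to 0.192). Of beta-2 microglobulin and 4 related genes, Cd1d1 rose in corpus callosum (0.52 ± 0.17, adjusted p 0.0437), a call that ended without any of the 6 arrays (up to 0.119). None of the genes of these 7 lists was called between the regions at a given age.

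Markers of other cells moved with age as well. Of 9 border-associated macrophage markers 0 rose and 6 fell in adult corpus callosum and 4 fell in adult cortex. The mannose receptor gene Mrc1 had the largest differences (-4.44 ± 0.27, adjusted p 3.07e-09 in corpus callosum, and -4.23 ± 0.27, adjusted p 3.68e-09 in cortex). The mean over these markers was 5.83 to 5.89 in adult corpus callosum, against 7.07 to 7.28 at P7, and 5.71 to 5.83 in adult cortex, against 6.77 to 7.15 at P7. Microglial markers ran the other way, with 8 of 9 higher in adult corpus callosum and 5 of 9 in adult cortex. Their means were 11.25 to 11.42 in adult corpus callosum, against 10.20 to 10.59 at P7, and 11.21 to 11.51 in adult cortex, against 10.75 to 10.84 at P7. In sorted populations, fewer cells of a type and less RNA per cell cannot be told apart, and the part of these markers in the differences of Fcgrt, Fcgr4 and Fcgr1 was not tested. At P3, 2 of the 9 border-associated macrophage markers were higher in corpus callosum than in cortex, Folr2 (1.63 ± 0.22, adjusted p 0.00187) and Ms4a7 (1.53 ± 0.29, adjusted p 0.0201). Folr2 kept its call under all 14 alternatives. Ms4a7 lost it with the replicate block (0.0551), with only the groups compared (0.19) and when replicate 1 of corpus callosum or either of replicates 1 and 3 of cortex was left out (highest 0.109). Mrc1 was not called at P3 and ran the other way, at 9.61 to 9.66 in corpus callosum, against 10.26 to 10.45 in cortex. At P7 and averaged over the ages Folr2 alone of the 9 was called higher in corpus callosum (1.95 ± 0.22, adjusted p 9.05e-05, and 1.32 ± 0.12, adjusted p 1.21e-05). The monocyte marker Lyz2 was higher there at P3 (0.90 ± 0.19, adjusted p 0.0384) and averaged over the ages (0.67 ± 0.11, adjusted p 0.00384). Its P3 call ended without any of the 6 P3 arrays (up to 0.136). Of the neutrophil markers 0 of 9 were called between adult and P7 in either region. Their mean was 5.55 on corpus callosum replicate 1 at P7, against 4.49 to 4.79 in adult corpus callosum. Of 9 monocyte markers 1 rose and 1 fell in corpus callosum, where 17.2% of all genes were called. In cortex 1 rose and 2 fell, where 10.2% were. Lyz2 fell in both regions (-1.22 ± 0.19, adjusted p 0.00013, and -0.82 ± 0.19, adjusted p 0.00656). Ccr2 rose in both (0.45 ± 0.15, adjusted p 0.0496, and 0.77 ± 0.15, adjusted p 0.00187), the first lost without 5 of 6 arrays.

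**Figure D4:**
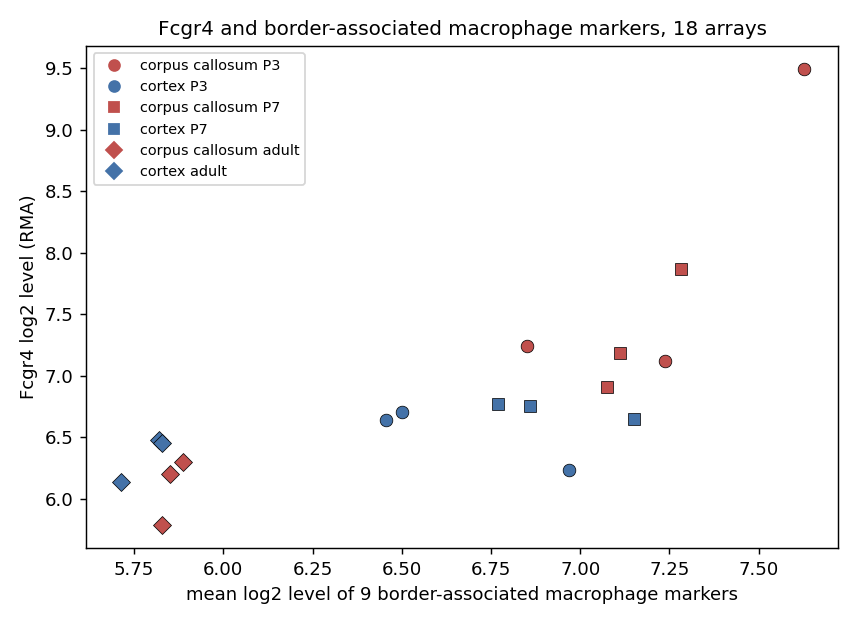
Fcgr4 level against the mean level of 9 border-associated macrophage markers on each of the 18 arrays, with colour for region and shape for age. The 6 adult arrays lie together at marker means of 5.71 to 5.89, and corpus callosum replicate 3 at P3 lies alone at 7.63 and 9.50.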

How the data were processed

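For each probe set the authors deposited a log2 level on every array, made with RMA per the submitters' processing notes. The base of the logarithm was taken as 2, and the sources used here give no version or settings of RMA. Of 41345 probe sets, 23521 had exactly 1 symbol in GEO's platform annotation. The brightest per symbol over the 18 arrays stood for a gene, which left 22180 genes. No 2 arrays held identical values.

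All arrays entered 1 limma model (version 3.58.1, R 4.3.3) with a mean per group and 12 residual degrees of freedom, and 10 comparisons were made, two-sided. The method was tested on simulated data. Alternatives were another quantile normalization, median centring, trend and robust eBayes, array weights, smaller fits, a filter on low values, the mean of a gene's probe sets, a replicate block and leaving out each array. After seeing the data, 3 more were added: leaving out both adult replicate 1 arrays, fitting P7 and adult arrays only, and the exact test without corpus callosum replicate 3 at P3.

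Groups of 3 against 3 cannot reach an exact p under 0.1, so exact tests were run only for the regional difference averaged over the ages. The members, the 7 pathway and 12 marker lists (77 of 83 and 90 of 96 genes measured) and the tests were chosen with earlier results of these data known. Named are all members, up to 3 called genes with the largest differences per list, direction and comparison (of the marker lists, those beside a result), a fixed marker panel and the 3 genes most like each member. The number of arrays limits the precision of every value, and RMA hides a change in total RNA per cell.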

Additional observations from a re-analysis of the deposited data

Results flagged for a closer look

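Folr2, a folate receptor gene used here as a marker of border-associated macrophages, was the 1 named gene whose regional difference differed between ages by a test of that difference. The regional difference in adults minus that at P7 was -1.56 ± 0.31 log2 units (limma, adjusted p 0.0459, range over 22 alternatives 0.0157 to 0.162, called under 9 of them). Its levels were 6.53 ± 0.04 in adult corpus callosum, against 6.14 ± 0.14 in adult cortex, and 9.19 ± 0.60 in corpus callosum at P7, against 7.24 ± 0.09 in cortex at P7. The call ended without any adult array, or any cortex array at P7. No member of the Fc receptor set had such a difference.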

How the results depend on the processing

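The number of members called was unchanged under the alternatives run for the regional comparisons at P3, P7 and in adults, for both comparisons of P7 with P3 and for both changes of the regional difference, at 0. Averaged over the ages it was 1 (Fcgr4) by the exact permutation test, unadjusted, against 0 in limma and 0 by the exact test without corpus callosum replicate 3 at P3, where Fcgrt was at -0.057. For adult minus P7 in corpus callosum it was 4, between 1 and 3 with 1 array left out, and 2 without both adult replicate 1 arrays. It was 3 after quantile normalization again, with trend and robust eBayes, with only the groups compared, with the mean of probe sets, with the replicate block and with P7 and adult arrays only, and 4 under the others. For adult minus P7 in cortex it was 1. There it was 3 after quantile normalization again, with the filter on low values or without both adult replicate 1 arrays, 4 with array weights, and 2 with trend and robust eBayes, with only the groups compared or with P7 and adult arrays only. It lay between 1 and 3 with 1 array left out. With the replicate block it was 2. After each gene's group mean was subtracted, same-numbered arrays of the regions at an age correlated with r of 0.02 to 0.30 in 9 pairs, 4 of them over 0.1. Set against the arrays of the other region at the same age, 15 of the 18 arrays correlated best with their own number. The main limma fit and the exact test did not treat the numbers as pairs. Whether equal numbers mark shared animals or batches was not tested. With the block, Fcer1g in corpus callosum had an adjusted p of 0.0518 and Fcgr3 in cortex passed.

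The largest difference that changed sign was that of Fcgr4 for P7 minus P3 in corpus callosum (-0.63). Next in size was that of Fcgr1 for the regional difference in adults minus that at P7 (0.18). After quantile normalization again Fcer1g was at 0.16 for adult minus P7 in cortex, Fcgr1 at -0.033 for P7 minus P3 in corpus callosum and Fcgrt at 0.012 for the regional difference in adults minus that at P7. Without both adult replicate 1 arrays Fcgr1 was at -0.0073 for that same change. With 1 array left out, the regional difference ranged from -0.16 to 0.019 for Fcgrt at P7. In adults it ranged from -0.24 to 0.0045 for Fcgr1, from -0.22 to 0.029 for Fcgr3 and from -0.25 to 0.024 for Fcgrt, and averaged over the ages from -0.057 to 0.090 for Fcgrt. P7 minus P3 in corpus callosum ranged from -0.10 to 0.16 for Fcgr1, from -1.05 to 0.14 for Fcgr4 and from -0.049 to 0.0098 for Fcer1g, and in cortex from -0.043 to 0.091 for Fcgr3 and from -0.025 to 0.26 for Fcgr2b. The regional difference in adults minus that at P7 ranged from -0.16 to 0.11 for Fcgrt. None of these was called, and the cause was not tested.

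Over all genes, adult minus P7 called 3822 in corpus callosum (2917 to 4438) and 2264 in cortex (1567 to 3861). The regions differed in 112 genes at P3 (16 to 251), 100 at P7 (40 to 236), 1 in adults (1 to 3) and 137 averaged (91 to 233). P7 minus P3 called 164 in corpus callosum (5 to 506) and 196 in cortex (72 to 644), and the changes of the regional difference 0 (0 to 1) and 45 (10 to 105). The files give no background level, so the size of a difference is least certain for Fcgr4 in adults, which lay near the array medians.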
